A study of Mus musculus with 28 samples.

Results

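The genes described here are 7 chemokine receptor genes, Ccr2, Ccr4, Ccr8, Ccr9, Cxcr4, Cxcr5 and Cxcr6, out of 19938 genes measured. They were chosen by name, as receptors for chemokines of inflamed tissue, skin, gut, bone marrow and B cell follicles. Each is read by 1 probe set that carries its symbol alone: 10590631 for Ccr2, 10597420 for Ccr4, 10590242 for Ccr8, 10590620 for Ccr9, 10357472 for Cxcr4, 10592888 for Cxcr5 and 10590623 for Cxcr6. In mouse, 6 of these genes lie on chromosome 9 and Cxcr4 lies on chromosome 1.

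The study followed CD4+ T cells that carry a transgenic T cell receptor for TRP1, a protein of pigment cells, with 28 Affymetrix arrays, 1 per cell sample. All cells came from the strain BwTRP1 Rag1-/-, whose lymphocytes cannot rearrange antigen receptor genes of their own, so the cells share a single T cell receptor. They were cultured for 7 days with TRP1 peptide on irradiated C57/B6 splenocytes. Th17 cultures received IL-1, IL-6, IL-21, TGFβ2 and antibodies against IL-2, IL-4 and IFN-γ, and IL-23 later on. Th1 cultures received IL-12 and an antibody against IL-4, and both types were later given medium with IL-2. Cells with the marker Thy1.2 were moved into B6.PL hosts, which carry Thy1.1 and had been irradiated with 5 Gy, so the hosts kept cells of their own. They were taken back from pooled spleens and inguinal lymph nodes by enrichment for CD4 and a sort for Thy1.2. Every sample was split, and antibodies against CD3 and CD28 restimulated one part of it for 2 h while the other stayed unstimulated.

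The 12 groups are Th17 and Th1 cells, restimulated and unstimulated, on day 0 (the day of transfer), day 5 and day 15. Day 5 had 3 arrays in each of its 4 groups. Day 15 had 4 arrays in each Th17 group and 2 in each Th1 group. Day 0 had 1 array in each group, so its values carry no error and no test. The labels used here do not state the ages of the animals. The labels do not say whether arrays of a group came from separate mice, so the p-values measure the spread between these samples, which may be technical.

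Chemokine receptors are proteins of the cell surface that sense secreted chemokines through G proteins and steer cells toward the source. On T cells the set of receptors changes with activation and helper type, and so sets which tissues the cells can enter. CCR2 responds to CCL2 and related ligands of inflamed tissue. CCR4, the receptor of CCL17 and CCL22, and CCR8, the receptor of CCL1, are known from T cells of skin and from Th2 and regulatory T cells. CCR9 responds to CCL25 and is known for homing to the small intestine. CXCR4 responds to CXCL12 of bone marrow and stroma, CXCR5 to CXCL13 of B cell follicles, and CXCR6 to CXCL16, for instance in liver and inflamed tissue.

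All values are log2 signals after RMA, so a difference of 1 is a 2-fold difference. The number of arrays limits the precision, and a probe set's brightness does not allow the level of 1 receptor to be set against that of another. Array medians over all probe sets ran from 6.77 to 7.09. Ccr2, Ccr4, Ccr8, Cxcr4 and Cxcr6 lay above the median on all 28 arrays, whereas Ccr9 did so on 6 and Cxcr5 on 2, so levels of these genes are mostly not shown to be above background. The mean of 7 measured CD4 T cell markers lay between 12.05 and 12.55 on every array, far above the array medians. In these bulk samples, fewer cells that use a gene and less RNA per cell cannot be told apart.

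Markers of other cells differed between groups. The mean of 6 neutrophil markers lay between 6.53 and 9.57 on Th17 arrays after transfer, against 6.21 to 6.65 on Th1 arrays of all days. It stood highest after transfer on the 2 day 5 Th17 arrays numbered 1, at 8.93 with restimulation and 9.57 without, against 7.12 to 8.01 on the other 4 Th17 arrays of day 5. The mean of 3 measured erythroid markers lay between 8.21 and 10.03 on day 15 arrays, against 6.73 to 6.94 on day 5 arrays. The part of these cells in the receptor results was not tested. Values without both day 5 Th17 arrays numbered 1 are given beside the results that they change most.

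**Figure D1:**
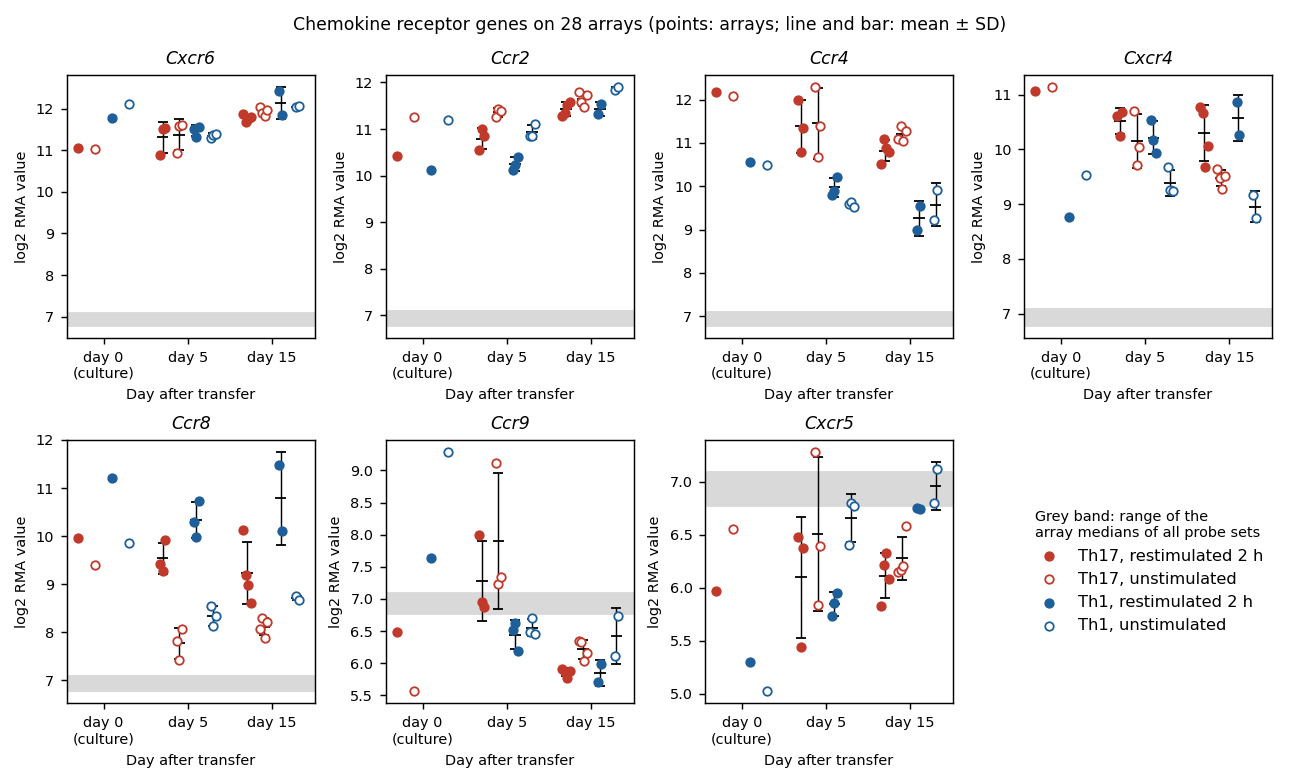
Signal of each receptor gene on all 28 arrays (vertical axis: log2 RMA value) by day after transfer; red points are Th17 arrays and blue points Th1 arrays, filled with 2 h of restimulation and open without, bars are mean ± SD, and the grey band is the range of the array medians, 6.77 to 7.09. Ccr4 sits higher in Th17 than in Th1 arrays on each day, Ccr8 is higher in restimulated than in unstimulated arrays of each type and day, and Ccr9 and Cxcr5 lie mostly in or under the grey band.

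Th17 and Th1 cells were first compared within each day and stimulation state, which asks whether the receptor pattern set in culture persisted in the host. Ccr4 was the receptor that marked Th17 cells: it was 2.66-fold to 3.66-fold higher than in Th1 cells on both days and in both states. On day 5, Ccr9 was also higher in unstimulated Th17 cells (2.54-fold) and Ccr2 in restimulated Th17 cells (1.46-fold). On day 15, Ccr8 was 2.93-fold lower in restimulated Th17 cells than in restimulated Th1 cells. Cxcr4, Cxcr5 and Cxcr6 passed the test in none of the 4 comparisons of the types by limma with Benjamini-Hochberg adjustment over all genes.

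In counts, 2 of 7 receptors passed on day 5 without restimulation, both higher in Th17 cells, against 3.63% of all genes tested (2.31% higher and 1.32% lower). On day 5 with restimulation 2 of 7 passed, both higher, against 3.98% of all genes (2.95% higher and 1.02% lower). On day 15, 1 of 7 passed without restimulation, being higher, against 4.15% of all genes (1.88% higher and 2.28% lower). With restimulation, 2 of 7 passed on day 15, 1 higher and 1 lower, against 6.43% of all genes (3.45% higher and 2.98% lower). The median difference over the 7 receptors was 0.42 and -0.20 without restimulation on days 5 and 15, where the median over all genes was -0.04 and 0.02. With restimulation it was 0.30 and -0.27 on days 5 and 15, with 0.00 and -0.03 over all genes.

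**Figure D2:**
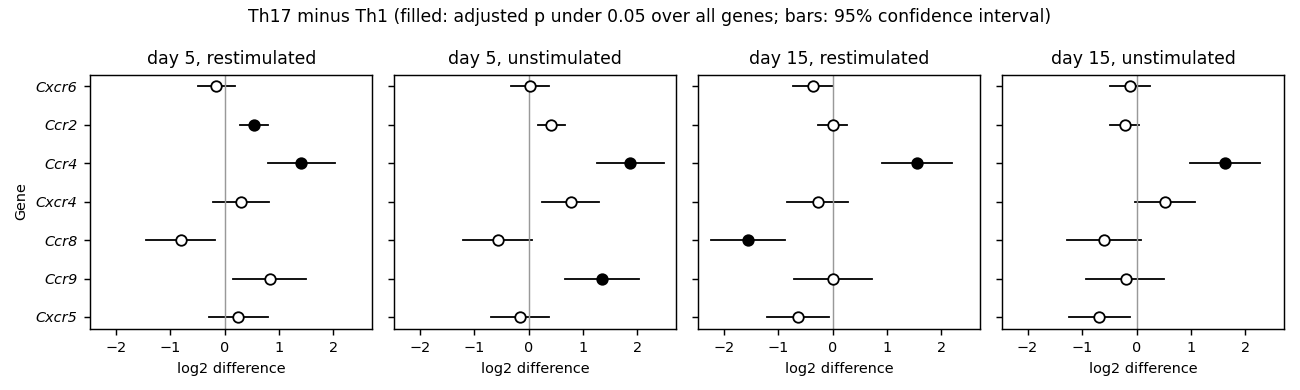
Difference of Th17 minus Th1 cells for each receptor gene (horizontal axis: log2 difference, with 95% confidence intervals from limma) in 4 panels for day and stimulation state; filled points had an adjusted p under 0.05 over all genes. Ccr4 is filled in all 4 panels, at 1.41, 1.87, 1.55 and 1.63, and Ccr8 is filled on day 15 with restimulation at -1.55.

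Ccr4 was measured on day 5 without restimulation at 12.30, 10.67 and 11.38 in Th17 cells, against 9.58, 9.64 and 9.52 in Th1 cells. With restimulation on day 5 it was 12, 10.79 and 11.35 in Th17 cells, against 9.80, 9.90 and 10.21 in Th1 cells. Every Th17 array of day 5 lay above every Th1 array of the same state, although Th17 arrays spread over more than 1 log2 unit and Th1 arrays did not. On day 15 the values without restimulation were 11.09, 11.39, 11.04 and 11.27 in Th17 cells and 9.22 and 9.92 in Th1 cells. With restimulation on day 15 they were 10.51, 11.09, 10.88 and 10.79 in Th17 cells and 8.98 and 9.55 in Th1 cells. Here too the types did not overlap.

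Without restimulation, Ccr4 averaged 11.45 ± 0.82 in Th17 cells and 9.58 ± 0.06 in Th1 cells on day 5 (SD, n = 3 each), a difference of 1.87 (95% interval 1.26 to 2.48, adjusted p = 0.000229). With restimulation the day 5 difference was 1.41 (adjusted p = 0.00428). On day 15 it was 1.63 without restimulation (11.20 ± 0.16, n = 4, in Th17 and 9.57 ± 0.49, n = 2, in Th1 cells, adjusted p = 0.00221) and 1.55 with it (adjusted p = 0.00267). Leaving out both day 5 Th17 arrays numbered 1, which held the highest Ccr4 values, gave 1.45 without restimulation (adjusted p = 0.000362) and 1.10 with it (adjusted p = 0.0061). Both day 15 calls were lost without the first of the 2 Th1 arrays, at 1.28 without restimulation (adjusted p = 0.105) and 1.27 with it (adjusted p = 0.0902). The single arrays of the day 0 cultures, which allow no test, differed in the same direction. Ccr4 was 12.07 in the Th17 and 10.50 in the Th1 culture without restimulation, and 12.18 against 10.56 with it.

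Restimulation did not pass the test for Ccr4 in any type or day, with differences from -0.38 (Th17, day 15) to 0.39 (Th1, day 5). Day 15 against day 5 did not pass either, with differences from -0.71 (restimulated Th1, 95% interval -1.39 to -0.03) to -0.01 (unstimulated Th1). The order of the 8 group means after transfer thus had the 4 Th17 groups, from 11.45 to 10.82, above the 4 Th1 groups, from 9.97 to 9.26. Of the 7 neighbouring pairs in this order 5 overlapped, and the step between the lowest Th17 group and the highest Th1 group did not.

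The promoter of Ccr4 is shown because this gene separates the types. It is the RefSeq window from 250 bases before to 50 bases after the gene's start, at chr9:114496495-114496794 on the minus strand of GRCm38.p6, written 5′ to 3′ along the gene. Capitals mark matches to the AP-1 motif TGANTCA and to the core of NFAT sites, GGAAA, the motifs of 2 factor families that T cell receptor signals activate.
Ccr4 promoter: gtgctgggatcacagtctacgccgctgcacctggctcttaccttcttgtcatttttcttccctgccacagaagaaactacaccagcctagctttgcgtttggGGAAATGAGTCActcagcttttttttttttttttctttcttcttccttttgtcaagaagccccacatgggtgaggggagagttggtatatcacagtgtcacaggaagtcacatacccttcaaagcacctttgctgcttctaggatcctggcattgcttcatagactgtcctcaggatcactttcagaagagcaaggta
Both strands were searched, also for the STAT motif TTCNNNGAA. The Ccr4 window holds 1 NFAT core that begins at base -148 and, directly after it, 1 AP-1 match that begins at base -143, counted from the start. Among 27025 RefSeq promoter windows of 300 bases, 7.93% hold an AP-1 match, 61.3% an NFAT core and 8.47% a STAT match, so the core alone sets few promoters apart. These matches describe letters and not binding.

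Ccr9, the gut homing receptor, was higher in unstimulated Th17 cells on day 5. Its values there were 9.12, 7.24 and 7.34 in Th17 cells, against 6.49, 6.71 and 6.46 in Th1 cells. With restimulation they were 7.99, 6.95 and 6.88 in Th17 cells, against 6.51, 6.63 and 6.19 in Th1 cells. The types did not overlap in either state, but the array numbered 1 stood more than 1 log2 unit above the other Th17 arrays. Without restimulation the difference was 1.35 (95% interval 0.67 to 2.02, adjusted p = 0.0168), from 7.90 ± 1.06 in Th17 and 6.55 ± 0.13 in Th1 cells (SD, n = 3 each). With restimulation it was 0.83 and did not pass (95% interval 0.16 to 1.50, adjusted p = 0.231).

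The Ccr9 call was lost with the compared groups alone (adjusted p = 0.0937) and with a trended robust prior (adjusted p = 0.0558). Without the unstimulated Th17 array numbered 1 alone it became 0.74 (adjusted p = 0.11), and without the Th1 array numbered 1 or 3 it was 1.31 (adjusted p = 0.0713) or 1.30 (adjusted p = 0.0757). Leaving out both Th17 arrays numbered 1 gave 0.74 again but a smaller estimate of spread, with an adjusted p of 0.00706. Neutrophil markers moved beside it: 4 of 6 were higher in unstimulated Th17 cells of day 5 (Lcn2 by 3.53, S100a8 by 2.96, Ngp by 2.95 and S100a9 by 2.02 log2 units), none lower, and their part in the Ccr9 result was not tested. On day 0, with 1 array per group, Ccr9 was 6.49 in the Th17 and 7.63 in the Th1 culture with restimulation, and 5.56 in the Th17 and 9.29 in the Th1 culture without.

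**Figure D3:**
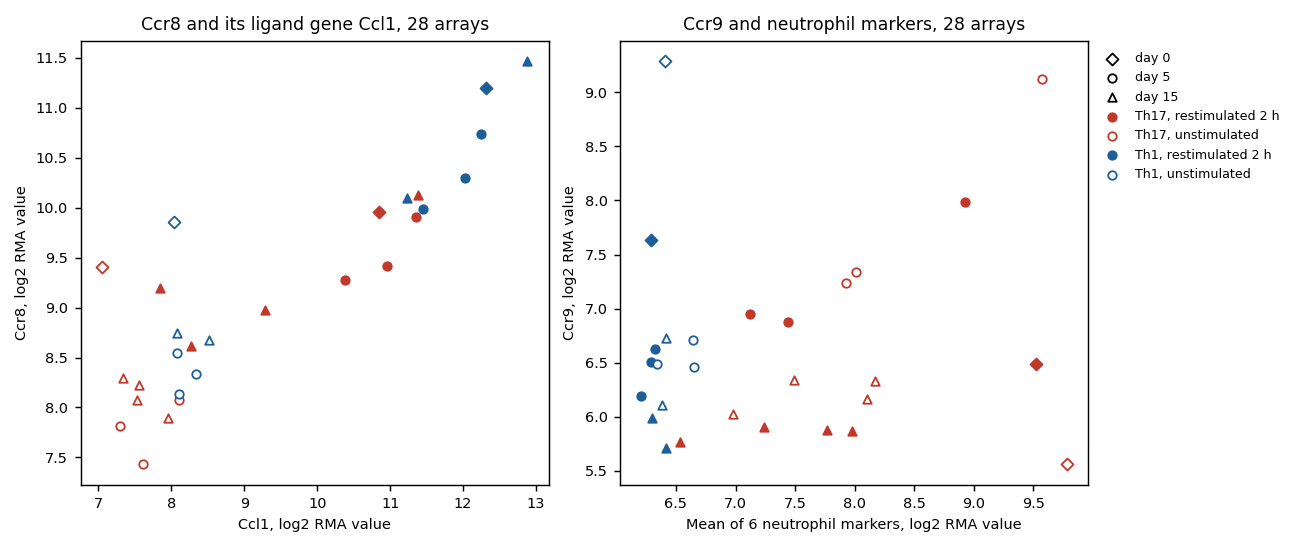
Left, Ccr8 (vertical axis) against its ligand gene Ccl1 (horizontal axis); right, Ccr9 (vertical axis) against the mean of 6 neutrophil markers (horizontal axis), all in log2 RMA values with 1 point per array, coloured by type, filled with restimulation and shaped by day. The restimulated Th1 array numbered 1 of day 15 is highest in both genes of the left panel (Ccr8 11.47 and Ccl1 12.88), while the unstimulated Th17 culture has Ccr8 at 9.41 with Ccl1 at 7.05; the day 5 Th17 arrays numbered 1 have the highest Ccr9 values after transfer, 9.12 and 7.99, and the Th17 cultures of day 0 have high neutrophil markers with Ccr9 at 5.56 and 6.49.

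Ccr2 differed between the types on day 5 with restimulation, at 10.55, 11.00 and 10.84 in Th17 cells against 10.12, 10.23 and 10.41 in Th1 cells. The types did not overlap, and the difference was 0.54 (95% interval 0.29 to 0.79, adjusted p = 0.00803). It was lost without the Th17 array numbered 2 (0.44, adjusted p = 0.0563) or the Th1 array numbered 1 (0.48, adjusted p = 0.0601). Without restimulation the day 5 values were 11.26, 11.44 and 11.38 in Th17 cells and 10.85, 10.85 and 11.11 in Th1 cells. These did not overlap either, and the difference of 0.42 lay just outside the threshold (adjusted p = 0.0548), and inside it without both Th17 arrays numbered 1 (0.47, adjusted p = 0.0445). On day 15 the difference was -0.22 without restimulation (95% interval -0.49 to 0.04) and 0.00 with it (95% interval -0.27 to 0.27). Monocyte and macrophage markers averaged 6.88, 6.03 and 6.09 in restimulated Th17 cells of day 5, against 5.82, 5.84 and 5.90 in Th1 cells. The part of such cells in the Ccr2 difference was not tested.

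The remaining receptors did not pass the test between the types, though some differences were as large as that of Ccr2. Cxcr4 was 0.77 log2 units higher in unstimulated Th17 cells of day 5 (adjusted p = 0.111; 0.50 without both arrays numbered 1), and 0.52 higher in those of day 15 (adjusted p = 0.382). Cxcr5 differed by -0.69 without restimulation on day 15 (adjusted p = 0.21) and by -0.63 with it (adjusted p = 0.225). For Cxcr6 the 4 differences ran from -0.36 to 0.03, and the 95% intervals together from -0.73 to 0.37.

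Restimulation for 2 h was compared with no restimulation in each type and day, which asks whether the receptor genes had responded at this single time. Ccr8 rose in both types on both days, by 3.40-fold and 2.16-fold in Th17 cells of days 5 and 15 and by 4.02-fold and 4.19-fold in Th1 cells of days 5 and 15. Cxcr4 rose in Th17 cells on day 15 (1.76-fold) and in Th1 cells on days 5 and 15 (1.77-fold and 3.06-fold). Ccr2 fell on day 5 in both types, by 1.47-fold in Th17 and 1.60-fold in Th1 cells. Cxcr5 fell 1.76-fold in Th1 cells of day 5, and Ccr4, Ccr9 and Cxcr6 passed in none of the 4 comparisons.

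On day 5, 2 of 7 receptors passed in Th17 cells, 1 in each direction, against 8.07% of all genes (3.99% higher and 4.08% lower). The Th1 cells of that day had 4 of 7, 2 in each direction, against 13.0% of all genes (4.07% higher and 8.96% lower). On day 15, 2 of 7 rose in Th17 cells and none fell, against 17.5% of all genes (6.49% higher and 11.1% lower). The Th1 cells of day 15 also raised 2 of 7 and lowered none, against 7.29% of all genes (2.65% higher and 4.63% lower). The median over the receptors lay between -0.21 and 0.12 in these comparisons, and that over all genes between -0.08 and 0.03.

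**Figure D4:**
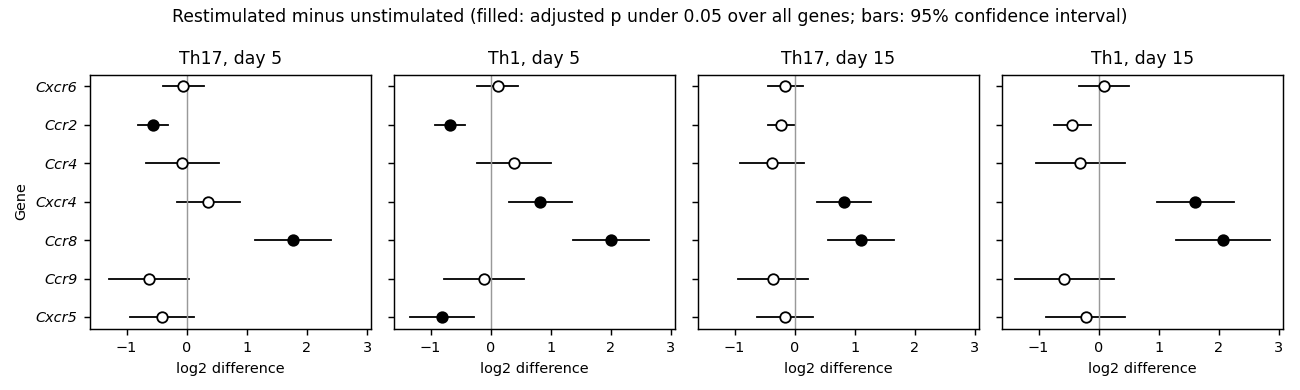
Difference of restimulated minus unstimulated cells for each receptor gene (horizontal axis: log2 difference, with 95% confidence intervals from limma) in 4 panels for type and day; filled points had an adjusted p under 0.05 over all genes. Ccr8 is filled and to the right in each panel, from 1.11 to 2.07, and Ccr2 is filled to the left on day 5, at -0.56 in Th17 and -0.68 in Th1 cells.

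Ccr8 on day 5 was 9.42, 9.28 and 9.91 in restimulated Th17 cells, against 7.81, 7.43 and 8.07 in unstimulated ones. The Th1 cells of day 5 gave 10.30, 9.99 and 10.74 with restimulation, against 8.55, 8.13 and 8.33 without. Restimulated and unstimulated arrays were far apart in both types. The rise was 1.77 in Th17 cells (95% interval 1.13 to 2.40, adjusted p = 0.000931), from 9.54 ± 0.33 with and 7.77 ± 0.32 without restimulation (SD, n = 3 each). In Th1 cells it was 2.01 (95% interval 1.37 to 2.64, adjusted p = 0.000176), from 10.34 ± 0.38 with and 8.34 ± 0.21 without (SD, n = 3 each).

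On day 15 Ccr8 was 10.13, 9.20, 8.98 and 8.62 in restimulated Th17 cells, against 8.07, 8.29, 7.89 and 8.22 in unstimulated ones. The Th1 cells of day 15 gave 11.47 and 10.10 with restimulation, against 8.75 and 8.68 without. The states did not overlap, but the restimulated arrays numbered 1 were the highest of both types. The rise was 1.11 in Th17 cells (95% interval 0.56 to 1.66, adjusted p = 0.00491) and 2.07 in Th1 cells (95% interval 1.29 to 2.85, adjusted p = 0.00214). The Th1 call was lost without the restimulated array numbered 1 (1.38, adjusted p = 0.0511) and in a model of the compared groups alone (adjusted p = 0.12). The direct test of the types' responses against each other did not pass (a difference of -0.95 on day 15, 95% interval -1.91 to -0.00, adjusted p = 0.795).

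Restimulated cells of day 15 thus held less Ccr8 in Th17 than in Th1 arrays, by 1.55 log2 units (9.23 ± 0.65, n = 4, against 10.78 ± 0.97, n = 2, adjusted p = 0.00388). The groups overlapped there, the highest Th17 array at 10.13 passing the lower Th1 array at 10.10. Without the restimulated Th1 array numbered 1 the difference was -0.87 (adjusted p = 0.233), and with the compared groups alone its adjusted p was 0.123. The order of the group means had the 4 restimulated groups, from 10.78 to 9.23, above the 4 unstimulated ones, from 8.72 to 7.77. In this order 5 of 7 neighbouring pairs overlapped, among them restimulated Th17 cells and unstimulated Th1 cells of day 15.

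Ccl1, the gene of the chemokine that CCR8 binds, moved beside its receptor. Restimulation raised it by 3.23 log2 units in Th17 cells of day 5 (adjusted p = 0.000792) and by 3.73 in Th1 cells of day 5 (adjusted p = 0.000119). On day 15 the rise was 1.60 in Th17 cells (adjusted p = 0.0222) and 3.76 in Th1 cells (adjusted p = 0.00192). The 4 restimulated Th17 arrays of day 15 read 11.38, 7.85, 9.29 and 8.27 for Ccl1. The array numbered 1 was thus highest for Ccl1 as well as for Ccr8. Some other genes that rose with restimulation also stood highest there. Rgs16 read 11.56, 9.54, 9.56 and 9.36 on these arrays and Bcl6 10.07, 9.68, 9.18 and 9.23. Rgs2 was highest on the array numbered 2 instead (10.48, against 10.34 on number 1). In Th1 cells the restimulated arrays 1 and 2 of day 15 read 12.86 and 11.52 for Rgs16. How far such differences between arrays bear on the Ccr8 and Ccl1 results was not tested. One of the restimulated Th17 arrays lay below an unstimulated one at 7.96 for Ccl1. The Th17 rise of Ccl1 was 0.87 without the restimulated array numbered 1 (adjusted p = 0.0806) and 1.52 without the unstimulated array numbered 2 (adjusted p = 0.0615). The 2 restimulated Th1 arrays read 12.88 and 11.23, in the same order as their Ccr8 values, and the Ccl1 difference of restimulated Th17 minus Th1 cells was -2.86 (adjusted p = 0.0032), or -2.04 without the Th1 array numbered 1 (adjusted p = 0.144).

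Cxcr4 on day 15 was 10.77, 10.67, 9.68 and 10.07 in restimulated Th17 cells, against 9.64, 9.48, 9.28 and 9.52 in unstimulated ones. In Th1 cells of day 15 it was 10.87 and 10.27 with restimulation, against 9.16 and 8.75 without. All restimulated arrays of day 15 lay above the unstimulated arrays of their type. The rise was 0.82 in Th17 cells (10.30 ± 0.51 with and 9.48 ± 0.15 without, SD, n = 4 each, adjusted p = 0.0112) and 1.61 in Th1 cells (10.57 ± 0.43 with and 8.96 ± 0.29 without, SD, n = 2 each, adjusted p = 0.00292). The Th17 call was lost without the restimulated array numbered 1 (0.66, adjusted p = 0.0529) or 2 (0.70, adjusted p = 0.0535). The Th1 call was lost without the unstimulated array numbered 2 (1.41, adjusted p = 0.0535) and in a model of the compared groups alone (adjusted p = 0.0702).

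On day 5 Cxcr4 was 10.62, 10.24 and 10.68 in restimulated Th17 cells and 10.70, 9.72 and 10.04 in unstimulated ones, which overlapped (difference 0.36, 95% interval -0.16 to 0.88, adjusted p = 0.458). In Th1 cells of day 5 it was 10.54, 10.17 and 9.94 with restimulation, against 9.67, 9.26 and 9.24 without. These did not overlap, and the rise was 0.82 (95% interval 0.30 to 1.35, adjusted p = 0.0321). The call was lost without the restimulated Th1 array numbered 1 (0.66, adjusted p = 0.164) or 2 (0.85, adjusted p = 0.0629) and without the unstimulated array numbered 2 (0.76, adjusted p = 0.104) or 3 (0.75, adjusted p = 0.128), and with a trended robust prior (adjusted p = 0.0604). The order of the group means ran from 10.57 in restimulated Th1 cells to 8.96 in unstimulated Th1 cells, both of day 15, and 5 of 7 neighbouring pairs overlapped.

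Ccr2 fell on restimulation on day 5, at 10.55, 11.00 and 10.84 with and 11.26, 11.44 and 11.38 without in Th17 cells. In Th1 cells of day 5 it was 10.12, 10.23 and 10.41 with restimulation, against 10.85, 10.85 and 11.11 without. No arrays of the states overlapped in either type. Ccr2 fell by 0.56 log2 units in Th17 cells (adjusted p = 0.0057) and by 0.68 in Th1 cells (adjusted p = 0.000653). The Th17 call was lost at the threshold without the restimulated array numbered 1 (-0.43, adjusted p = 0.05) and without both arrays numbered 1 (-0.49, adjusted p = 0.0849). On day 15 the differences were -0.22 in Th17 cells (adjusted p = 0.159) and -0.44 in Th1 cells (adjusted p = 0.0752).

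Cxcr5, the follicle receptor, fell by 0.81 log2 units on restimulation of Th1 cells of day 5, with 5.73, 5.85 and 5.95 with restimulation against 6.40, 6.8 and 6.77 without. The states did not overlap, but each of these values lay below the array medians, and the call (adjusted p = 0.0402) was lost in 9 of 13 alternatives. Among these were the fit with the replicate number as a block (adjusted p = 0.0517) and the fits without the restimulated array 1 (-0.76, adjusted p = 0.128), 2 (-0.82, adjusted p = 0.0835) or 3 (-0.87, adjusted p = 0.0813). The fits without the unstimulated array 2 (-0.74, adjusted p = 0.125) or 3 (-0.75, adjusted p = 0.137) lost it too. In the 3 other comparisons Cxcr5 differed by -0.41 to -0.16. Ccr9 differed by -0.63 in Th17 cells of day 5 (adjusted p = 0.273), and in the fit with the replicate number as a block this became a call (-0.63, adjusted p = 0.0158), while without both arrays numbered 1 it was -0.38 (adjusted p = 0.343). Cxcr6 differed by at most 0.16 log2 units in either direction, with 95% intervals that together ran from -0.45 to 0.51.

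The promoters of the receptors that respond to restimulation are shown next, again from RefSeq on GRCm38.p6, with 250 bases before and 50 after the start. Ccr8 (chr9:120091883-120092182, plus strand) and Cxcr4 (chr1:128592250-128592549, minus strand) rose, and Ccr2 (chr9:124101933-124102232, plus strand) fell. Capitals mark the NFAT core GGAAA, or TTTCC where it lies on the other strand.
Ccr8 promoter: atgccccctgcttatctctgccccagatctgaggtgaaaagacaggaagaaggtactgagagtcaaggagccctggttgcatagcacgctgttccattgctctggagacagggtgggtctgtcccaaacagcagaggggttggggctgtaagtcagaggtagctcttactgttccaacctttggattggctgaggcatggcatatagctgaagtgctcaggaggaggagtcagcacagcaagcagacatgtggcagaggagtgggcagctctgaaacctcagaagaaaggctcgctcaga
Cxcr4 promoter: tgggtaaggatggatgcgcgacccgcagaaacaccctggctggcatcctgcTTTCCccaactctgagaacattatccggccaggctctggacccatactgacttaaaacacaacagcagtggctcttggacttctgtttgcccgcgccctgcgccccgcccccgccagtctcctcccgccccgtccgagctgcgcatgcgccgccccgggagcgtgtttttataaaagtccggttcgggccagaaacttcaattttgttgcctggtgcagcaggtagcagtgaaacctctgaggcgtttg
Ccr2 promoter: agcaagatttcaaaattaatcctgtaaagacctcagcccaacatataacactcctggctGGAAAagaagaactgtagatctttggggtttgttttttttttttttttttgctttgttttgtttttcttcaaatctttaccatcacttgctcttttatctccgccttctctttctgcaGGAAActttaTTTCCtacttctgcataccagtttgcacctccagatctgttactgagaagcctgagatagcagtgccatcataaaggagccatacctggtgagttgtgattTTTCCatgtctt
The Ccr2 window holds 4 NFAT cores, the Cxcr4 window 1 and the Ccr8 window 0, and none of the 3 holds an AP-1 or STAT match as spelled above. Of the other receptors, the Cxcr6 window holds 3 NFAT cores and the Ccr9 window 0. The promoter table gave a window for 6 of the 7 receptors. No match says only that these letters are not in this window.

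Day 15 was compared with day 5 in each type and state, which asks how the receptors changed as the cells persisted in the host. Ccr2 rose 1.55-fold in restimulated Th17 cells, 2.26-fold in restimulated Th1 cells and 1.91-fold in unstimulated Th1 cells. Cxcr6 rose 1.47-fold in unstimulated Th17 cells, and 1.59-fold and 1.63-fold in restimulated and unstimulated Th1 cells. Ccr9 fell in Th17 cells, 3.20-fold without and 2.66-fold with restimulation. Cxcr5 rose 1.87-fold in restimulated Th1 cells, and Ccr4, Ccr8 and Cxcr4 passed in none of the 4 comparisons.

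In unstimulated Th17 cells 2 of 7 receptors passed, 1 in each direction, against 9.64% of all genes (4.37% higher and 5.28% lower). In restimulated Th17 cells 2 of 7 passed, 1 in each direction, against 13.5% (5.05% higher and 8.42% lower). In unstimulated Th1 cells 2 of 7 rose and none fell, against 16.1% of all genes (7.33% higher and 8.72% lower). In restimulated Th1 cells 3 of 7 rose and none fell, against 15.7% (7.07% higher and 8.64% lower). The median over the receptors was -0.22 and -0.23 in restimulated and unstimulated Th17 cells, with 0.44 and 0.30 in restimulated and unstimulated Th1 cells. The median over all genes lay between -0.05 and 0.05. The 12 comparisons reuse the arrays of 8 groups, so they are not independent of each other.

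**Figure D5:**
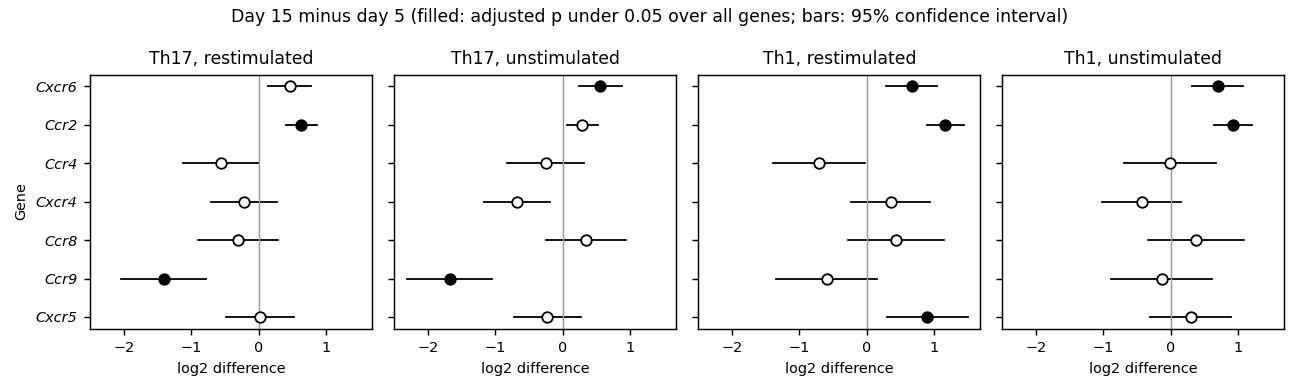
Difference of day 15 minus day 5 for each receptor gene (horizontal axis: log2 difference, with 95% confidence intervals from limma) in 4 panels for type and stimulation state; filled points had an adjusted p under 0.05 over all genes. Ccr2 lies to the right in each panel and is filled in 3, up to 1.17 in restimulated Th1 cells, and Ccr9 is filled to the left in both Th17 panels, at -1.41 and -1.68.

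Ccr2 in unstimulated Th1 cells was 11.84 and 11.90 on day 15, against 10.85, 10.85 and 11.11 on day 5. In restimulated Th1 cells it was 11.32 and 11.54 on day 15, against 10.12, 10.23 and 10.41 on day 5. The days were separated by more than their spread in both states, with rises of 0.93 (95% interval 0.65 to 1.21, adjusted p = 2.58e-05) and 1.17 (95% interval 0.89 to 1.45, adjusted p = 2.08e-06). In restimulated Th17 cells Ccr2 was 11.27, 11.35, 11.51 and 11.59 on day 15, against 10.55, 11.00 and 10.84 on day 5, a rise of 0.63 (95% interval 0.40 to 0.87, adjusted p = 0.000678). These 3 calls held in every alternative that was run. In unstimulated Th17 cells it was 11.80, 11.58, 11.48 and 11.73 on day 15, against 11.26, 11.44 and 11.38 on day 5. The arrays did not overlap, but the difference of 0.29 did not pass (95% interval 0.06 to 0.52, adjusted p = 0.11).

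The order of the Ccr2 means had the 4 day 15 groups, from 11.87 to 11.43, above the 4 day 5 groups, from 11.36 to 10.26. Of 7 neighbouring pairs 4 overlapped, among them restimulated Th1 cells of day 15 and unstimulated Th17 cells of day 5. Th17 cells were above Th1 cells on day 5 and not on day 15. The test of that change between the types gave -0.64 without restimulation (95% interval -1.01 to -0.28, adjusted p = 0.0778) and -0.54 with it (95% interval -0.91 to -0.18, adjusted p = 0.175), neither of which passed. The first passed without both day 5 Th17 arrays numbered 1 (-0.69, adjusted p = 0.049), and the second with the replicate number as a block (-0.65, adjusted p = 0.0485).

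Cxcr6, the receptor of CXCL16, in unstimulated Th1 cells was 12.04 and 12.07 on day 15, against 11.29, 11.36 and 11.40 on day 5. In restimulated Th1 cells it was 12.42 and 11.86 on day 15, against 11.52, 11.32 and 11.57 on day 5. The days did not overlap, and the rises were 0.70 (95% interval 0.32 to 1.08, adjusted p = 0.00962) and 0.67 (95% interval 0.29 to 1.05, adjusted p = 0.014). The unstimulated call was lost without either day 15 Th1 array (0.71, adjusted p = 0.0601, without number 1, and 0.69, adjusted p = 0.0848, without number 2). The restimulated call was lost without the day 15 array numbered 1 (0.39, adjusted p = 0.247) or the day 5 array numbered 2 (0.59, adjusted p = 0.0577), and with the compared groups alone (adjusted p = 0.0672).

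In unstimulated Th17 cells Cxcr6 was 12.05, 11.89, 11.83 and 11.97 on day 15, against 10.94, 11.58 and 11.61 on day 5. In restimulated Th17 cells it was 11.87, 11.69, 11.75 and 11.81 on day 15, against 10.89, 11.52 and 11.54 on day 5. The days did not overlap, and the arrays numbered 1 were lowest on day 5. The unstimulated rise was 0.56 (95% interval 0.24 to 0.88, adjusted p = 0.023) and became 0.34 without the array numbered 1 of day 5 (adjusted p = 0.221) and 0.52 without the array numbered 1 of day 15 (adjusted p = 0.0507). This call was also lost without both day 5 arrays numbered 1 (0.34, adjusted p = 0.0942), with the compared groups alone (adjusted p = 0.0623) and with centred array medians (0.48, adjusted p = 0.058). The restimulated difference of 0.46 did not pass (adjusted p = 0.0526) and was 0.24 without both day 5 arrays numbered 1. In the order of the Cxcr6 means the 4 day 15 groups, from 12.14 to 11.78, stood above the 4 day 5 groups, from 11.47 to 11.32, and 6 of 7 neighbouring pairs overlapped, the step between the days being the exception.

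Ccr9 in unstimulated Th17 cells was 6.34, 6.33, 6.03 and 6.16 on day 15, against 9.12, 7.24 and 7.34 on day 5. In restimulated Th17 cells it was 5.91, 5.87, 5.77 and 5.88 on day 15, against 7.99, 6.95 and 6.88 on day 5. Every day 15 array lay below every day 5 array of its state, and below the array medians. Ccr9 fell by 1.68 log2 units without restimulation (6.22 ± 0.15, n = 4, on day 15 and 7.90 ± 1.06, n = 3, on day 5, adjusted p = 0.000805) and by 1.41 with it (adjusted p = 0.00304). Without both day 5 Th17 arrays numbered 1 the differences were -1.07 (adjusted p = 5.08e-05) and -1.06 (adjusted p = 9.44e-05). Neutrophil markers averaged 6.98 to 8.17 in unstimulated Th17 cells of day 15, against 7.93 to 9.57 on day 5, and of the 6 markers S100a8 and Lcn2 fell and Elane rose.

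In Th1 cells Ccr9 was low on both days, at 6.11 and 6.73 on day 15 and 6.49, 6.71 and 6.46 on day 5 without restimulation. With restimulation it was 5.71 and 5.99 on day 15, against 6.51, 6.63 and 6.19 on day 5. Neither difference passed (-0.13, adjusted p = 0.894, and -0.59, adjusted p = 0.348). The test of the type difference between the days gave -1.55 without restimulation (adjusted p = 0.12) and -0.94 without both arrays numbered 1, where it passed (adjusted p = 0.0283). The order of the Ccr9 means had the 2 Th17 groups of day 5 on top, at 7.90 and 7.27, and the other groups between 6.55 and 5.85, and 5 of 7 neighbouring pairs overlapped.

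Cxcr5 in restimulated Th1 cells was 6.75 and 6.74 on day 15, against 5.73, 5.85 and 5.95 on day 5, a rise of 0.90 (95% interval 0.30 to 1.50, adjusted p = 0.0352). The days did not overlap, but 9 of 12 alternatives lost the call, with the replicate number as a block (0.95, adjusted p = 0.061) among them. So did the fits without any 1 of the 5 arrays compared, with values from 0.85 to 0.95 and adjusted p from 0.0606 to 0.137. In unstimulated Th1 cells Cxcr5 was 6.8 and 7.12 on day 15 and 6.40, 6.8 and 6.77 on day 5, which met at 6.8. Th17 arrays of day 15 ran from 5.83 to 6.58 and those of day 5 from 5.44 to 7.28 over both states. The order of the Cxcr5 means ran from 6.96 in unstimulated Th1 cells of day 15 to 5.84 in restimulated Th1 cells of day 5, and 6 of 7 neighbouring pairs overlapped.

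Markers of other cells moved with the day as well, and all 3 measured erythroid markers rose in each type and state. The median rises were 1.19 and 2.69 in restimulated and unstimulated Th17 cells and 1.91 and 3.08 in restimulated and unstimulated Th1 cells. NK cell markers averaged 6.88 and 7.46 in unstimulated Th1 cells of day 15, against 6.30 to 6.62 on day 5. Of these, 2 of 4 rose, Klrb1c by 1.55 and Klra8 by 0.89, where 7.33% of all genes rose. Which cells held the RNA of these markers cannot be told from bulk samples, and the part of other cells in the rises of Ccr2 and Cxcr6 was not tested.

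Whether effects differed between types, days or states was tested with 6 interactions. By limma with adjustment over all genes, 0 of 7 receptors passed in each of the 6, while 7 of the 42 tests had an unadjusted p under 0.05. For polarization by day the shares of all genes called were 1.14% without and 0.943% with restimulation. For polarization by restimulation they were 0.0201% on day 5 and 0% on day 15, and for restimulation by day 1.17% in Th17 and 0.0251% in Th1 cells. The 7 tests included Ccr2 and Ccr9 for polarization by day without restimulation, described above. For Cxcr4 the response to restimulation of Th17 minus that of Th1 cells was -0.79 on day 15 and did not pass (adjusted p = 0.795).

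The cultures of day 0 gave 1 array per group and therefore values only. In the Th17 culture, Cxcr4 was 11.06 with and 11.15 without restimulation, and in the Th1 culture 8.76 and 9.53. This gap of 2.30 and 1.62 log2 units was larger than any type difference of Cxcr4 after transfer, where the largest was 0.77. Cxcr6 ran the other way, at 11.06 with and 11.03 without restimulation in the Th17 culture, against 11.79 and 12.11 in the Th1 culture. Ccr8 was 9.96 with and 9.41 without restimulation in the Th17 culture, and 11.20 and 9.86 in the Th1 culture. Ccr2 was 10.43 with and 11.25 without in the Th17 culture, and 10.13 and 11.19 in the Th1 culture, so that it was lower with restimulation in both. Cxcr5 was 5.97 and 6.55 with and without restimulation in the Th17 culture and 5.30 and 5.02 in the Th1 culture, all below the array medians. Markers of other cells differed too. Neutrophil markers averaged 9.52 with and 9.78 without restimulation in the Th17 culture, against 6.29 and 6.41 in the Th1 culture. Monocyte and macrophage markers averaged 8.10 and 8.50 against 6.36 and 6.56, and dendritic markers 8.09 and 8.28 against 7.61 and 7.74. B cell, CD8 T cell and NK cell markers averaged lower in the Th17 culture. The part of such cells in the Cxcr4 gap and the other differences was not tested.

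The other chemokine receptors, of which 15 of 16 listed were measured, give the surroundings. In unstimulated cells of day 5, 3 of 15 were higher in Th17 than in Th1 cells, namely Cxcr2 (2.36), Ccr6 (2.21), the receptor of CCL20 typical of Th17 cells, and Ccr7 (1.88), the lymph node homing receptor. Lower were 2, Cx3cr1 (-0.91) and Ccr3 (-0.61), and the median over the 15 was 0.01. Of all genes, 2.31% were higher and 1.32% lower in that comparison. On day 15 without restimulation 2 were higher, Ccr7 (1.93) and Ccr6 (1.09), and 2 lower, Cx3cr1 (-1.93) and Ccr3 (-1.82). There 1.88% of all genes were higher and 2.28% lower. Between day 5 and day 15, unstimulated Th1 cells raised 3 of 15, Cx3cr1 (1.76), Ccr3 (1.13) and Ackr1 (0.42), and lowered none. They raised 7.33% of all genes and lowered 8.72%. Unstimulated Th17 cells raised 3 as well, Cx3cr1 (0.74), Ccr7 (0.64) and Ackr1 (0.44), and lowered 2, Cxcr2 (-2.24) and Ccr6 (-0.98). They raised 4.37% of all genes and lowered 5.28%. With restimulation Cxcr2 (-1.61) fell in Th17 cells of day 5, and Ccr3 (-0.62) and Cxcr3 (-0.41) fell in Th1 cells of day 5. In Th17 cells of day 15 Ccrl2 (0.55) rose and Ackr1 (-0.36) fell. Neutrophil markers moved beside Cxcr2. In unstimulated Th17 cells of day 5, Lcn2 (3.53), S100a8 (2.96), Ngp (2.95) and S100a9 (2.02) were higher than in Th1 cells. Between the days S100a8 (-2.31) and Lcn2 (-1.93) fell in these cells and Elane (1.90) rose. Neutrophil markers averaged 8.93, 7.12 and 7.44 in restimulated Th17 cells of day 5, against 9.57, 7.93 and 8.01 in unstimulated ones. The part of such cells in the Cxcr2 differences was not tested.

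Of 11 ligand genes measured, Ccl1 was the one that passed in each of the 4 restimulation comparisons in the fit to all 24 arrays. Cxcl16, the ligand of CXCR6, rose by 0.56 in Th1 cells of day 5 and Ccl25, the ligand of CCR9, by 0.32 in Th17 cells of day 15. Cxcl13, the ligand of CXCR5, fell between day 5 and day 15 in each type and state, by 0.46 to 0.64. The CCR4 ligands were high in the cultures and low afterwards. Ccl22 was 11.35 in the Th17 and 10.25 in the Th1 culture without restimulation, and its group means after transfer lay between 5.70 and 6.41. At these levels, under the array medians, Ccl22 was 0.71 higher in unstimulated Th17 than Th1 cells of day 5 (limma, adjusted p = 0.032). Ccl17 was 11.66 in the Th17 and 8.08 in the Th1 culture without restimulation, with group means from 6.31 to 6.73 after transfer. Markers of other cells also differed between the cultures, as given above, and the part of such cells in these ligand values was not tested.

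Among 18 measured genes of receptor signalling are RGS genes, whose products shorten G protein signals. With restimulation Rgs16 rose by 2.53 in Th17 and 2.88 in Th1 cells of day 5, and by 1.82 in Th17 and 2.78 in Th1 cells of day 15. Rgs1 rose by 1.00 in Th17 and 1.23 in Th1 cells of day 5, and by 2.05 in Th17 and 1.08 in Th1 cells of day 15. Rgs2 rose by 1.76 in Th1 cells of day 5 and by 1.91 in Th17 and 1.33 in Th1 cells of day 15. Rgs18 fell on day 15, by 0.81 in Th17 and 0.70 in Th1 cells. Pik3cg, a kinase downstream of these receptors, fell in all 4 comparisons, by 0.36 to 0.51. In Th17 cells of day 5 2 of 18 rose and 3 fell, where 3.99% of all genes rose and 4.08% fell. In Th1 cells of day 5 3 rose and 3 fell, where 4.07% of all genes rose and 8.96% fell. On day 15, 4 rose and 3 fell in Th17 cells, where 6.49% of all genes rose and 11.1% fell. In Th1 cells of day 15 3 rose and 2 fell, where 2.65% of all genes rose and 4.63% fell. Arrb1, an arrestin that uncouples receptors, was higher in Th17 than in Th1 cells by 1.46 on day 5 and 0.60 on day 15 without restimulation.

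Among 15 measured transcription factors linked to these receptors, Bcl6 rose with restimulation by 1.59 in Th17 and 1.63 in Th1 cells of day 5, and by 1.26 in Th17 and 1.66 in Th1 cells of day 15. Klf2, a factor of T cell quiescence and egress, fell by 0.63 in Th17 and 1.01 in Th1 cells of day 5, and by 0.74 in Th1 cells of day 15. Rora, a factor of the Th17 type, was higher in Th17 than in Th1 cells by 1.61 on day 5 and 0.44 on day 15 without restimulation. In those 2 comparisons 2 of 15 factors were higher and none lower on day 5, and 1 was higher and 4 were lower on day 15, with medians of -0.08 and -0.26. Beside Rora, Foxo1 was higher on day 5 (0.44). The factors lower in Th17 cells on day 15 were Ikzf2 (-1.26), Prdm1 (-1.02), Tbx21 (-0.77) and Runx3 (-0.42). Of all genes, 2.31% were higher and 1.32% lower on day 5, and 1.88% higher and 2.28% lower on day 15.

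Several receptors share a stretch of chromosome 9 with other genes, among them Ccr9, Fyco1, Xcr1, Ccr1, Ccr3 and Ccr2, in that order, in the RefSeq table of GRCm38.p6, with Cxcr6 inside the span of Fyco1. Of 12 measured neighbours, Fyco1 rose between day 5 and day 15 in all 4 groups, by 0.54 and 0.39 in restimulated and unstimulated Th17 cells and by 0.76 and 0.84 in restimulated and unstimulated Th1 cells. Its neighbour Slc6a20a rose as well, by 0.44 and 0.93 in restimulated and unstimulated Th17 cells and by 0.61 and 0.88 in restimulated and unstimulated Th1 cells. Ccr3 rose in Th1 cells (1.34 and 1.13 in restimulated and unstimulated cells) and in neither Th17 comparison. In Th17 cells 2 of 12 neighbours rose and 1 fell in each state, with medians of 0.01 and 0.05 in restimulated and unstimulated cells. Of all genes, 5.05% rose and 8.42% fell in restimulated Th17 cells, and 4.37% rose and 5.28% fell in unstimulated ones. The neighbour that fell was Lztfl1 (-0.76 with and -1.29 without restimulation). In Th1 cells 3 of 12 rose and none fell in either state, with medians of 0.15 and 0.21 in restimulated and unstimulated cells, where 7.07% and 7.33% of all genes rose.

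The genes whose pattern over the 24 arrays after transfer was most like each receptor's were taken among 9964 genes above the median level, by Pearson's r, as a description. For Ccr8 they were Samsn1 (0.96), Gfod1 (0.96) and Sh2d2a (0.94), and for Ccr2 they were Nipal3 (0.95), Cyria (0.95) and Dzip1 (0.94). Ccr4 was nearest to Aqp3 (0.94), Gtf2ird1 (0.93) and Vax2 (0.93). Cxcr6 was nearest to Hpn (0.88), Samd14 (0.86) and Dmtn (0.85), and Cxcr4 to Cd28 (0.86), Lrrc8d (0.86) and Dgat1 (0.86). Ccr9 was nearest to Fcgr3 (0.88), a receptor gene of myeloid and NK cells, then Plin2 (0.86) and Vav2 (0.86). Cxcr5 had the lowest values, with Trdv2-2 (0.77), Dpp8 (0.76) and Fbxo25 (0.76). These arrays share groups, so the likeness includes the group differences described above.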

How the data were processed

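Gene expression was measured on 28 arrays, and the authors deposited log2 values made with RMA in Affymetrix Expression Console, per the submitters' processing notes. Which arrays were normalised together, and the versions, are not stated there. RMA subtracts background and gives all arrays a common distribution before probes are combined, so a change in total RNA per cell is not seen. No detection calls were used.

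The platform table named 1 gene for 21789 of 35556 probe sets, several for 1621 and none for 12146, and those with 1 symbol were used, with the highest mean where a gene had more than 1 (999 genes). This left 19938 genes. The gene table held 21698 of these identifiers, and 0 symbols were updated. Within groups, 26 pairs of arrays correlated at 0.987 to 0.998. No column of values was left without a sample.

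The 24 arrays after transfer were fitted with limma 3.58.1 (lmFit, eBayes) in R 4.3.3, with group means as coefficients (8 groups, 16 residual degrees of freedom). It gave 12 pairwise comparisons and 6 interactions. Calls are genes with a p under 0.05 after Benjamini-Hochberg adjustment over all genes, and the 95% intervals come from the same fit. The pipeline was tested on simulated data. The model did not use the 4 day 0 arrays. Motifs were searched with Python 3.11.15.

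All 7 receptors are named whatever their change, with the 3 nearest genes of each. Called genes of the lists are named for some comparisons only, so a listed gene that is not named may still have been called. The receptors and the lists were chosen with earlier results of these data known. Listed genes that were not measured here are left out.

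Equal replicate numbers were taken to pair arrays where groups shared 3 or more numbers and all same-numbered deviations from the group means correlated above 0.1 over 9969 genes. This held on day 5 for restimulation in Th17 (0.39 to 0.48) and Th1 cells (0.16 to 0.21) and for restimulated Th17 against Th1 cells (0.21 to 0.48). Same-numbered arrays of different days, which cannot be parts of 1 sample, gave 0.38 and 0.65 in restimulated Th1 cells. In restimulated Th17 cells they gave -0.21 to 0.18. Arrays with different numbers were not compared, so the rule cannot show that equal numbers mark parts of 1 sample. Alternatives were the replicate number as a block, the compared groups alone, cyclic loess, centred array medians, genes above the median, a trended robust prior, sample parts as a random block and leaving out each array. Leaving out both day 5 Th17 arrays numbered 1, and each array for Ccl1, was added after seeing the data.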

Additional observations from a re-analysis of the deposited data

Results flagged for a closer look

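In unstimulated Th17 cells of day 15, Cxcr5 was 6.58 on the array numbered 4, against 6.15, 6.17 and 6.20 on the other 3. The gap to the nearest array was large for the range of the group by Dixon's criterion. It was 1 of 14 gene and group pairs examined, and chance gives about 1 in 20. The value lies below the array medians.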

How the results depend on the processing

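Of the 26 calls among 84 pairwise tests of the receptors, 11 held in every alternative run, 15 were lost in at least 1, and 0 reversed. Of the pairwise tests without a call 13 gained one in at least 1 alternative, and of the 42 interaction tests 3 did. With the compared groups alone, the receptors called numbered 3 for Th17 against Th1 cells of day 15 without restimulation, 1 with it, 0 for restimulation of Th1 cells of day 15, 1 for unstimulated Th17 cells of day 15 against day 5, and 1 for polarization by day without restimulation. That interaction also had 1 under cyclic loess, with genes above the median and with the trended robust prior, and 2 without both day 5 Th17 arrays numbered 1. Unstimulated Th17 cells of day 15 against day 5 had 1 with centred medians and without both those arrays. They also had 1 with genes above the median, a setting in which 5 receptors were tested. Ccr9, called in the main fit, and Cxcr5 lie below that level and were not tested there, so this lower count holds no lost call. Restimulation had 2 in Th1 cells of day 5 with the trended robust prior and 1 in Th17 cells of day 5 without both those arrays.

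With the replicate number as a block, polarization by day with restimulation had 1 receptor called, Ccr2 (-0.65, adjusted p = 0.0485). Where numbers were taken to pair the arrays, the block lost Cxcr5 for restimulation of Th1 cells of day 5 (-0.81, adjusted p = 0.0517). It gained Ccr9 for restimulation of Th17 cells of day 5 (-0.63, adjusted p = 0.0158), and it changed no other call there. For restimulated Th1 cells of day 15 against day 5, which share 2 numbers only, it lost Cxcr5 (0.95, adjusted p = 0.061).

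Leaving out 1 array at a time, the receptors called for Th17 against Th1 cells ranged from 1 to 3 on day 5 without and 1 to 2 with restimulation, and from 0 to 1 without and 0 to 3 with it on day 15. For restimulation they ranged from 1 to 2 in Th17 and 2 to 4 in Th1 cells of day 5, and from 1 to 2 in Th17 and 1 to 3 in Th1 cells of day 15. For day 15 against day 5 they ranged from 1 to 3 in unstimulated and 2 to 3 in restimulated Th17 cells, and from 1 to 2 in both Th1 states. In the 6 interactions they stayed at 0. Where 1 array was left in a group, it was assumed to vary like the other groups. The causes of these changes were not tested. Cyclic loess and centring moved the median difference of all genes by up to 0.09 and 0.08. Sample parts as a random block had a correlation of 0.04.

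For signals under the array medians, as for Ccr9 and Cxcr5, no detection call was available. Groups of 2 Th1 arrays on day 15 limit all comparisons with them.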
